A study of Mus musculus with 6 samples.

Results

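Transcripts of 49 genes of DNA replication and mitosis were followed through mouse bone marrow-derived macrophages of 2 genotypes, with and without oxidized low-density lipoprotein (oxLDL), the modified lipid particle that macrophages take up in atherosclerotic lesions. The genes were chosen by symbol as known components of the cell cycle, 25 acting in replication and 24 in mitosis, out of 24054 genes in the table. All 49 were found and all 49 passed the filter on low counts, as did 12689 genes in all. The 6 libraries are called here treated mutant (C57BL/6-Kindlin3-integrin mutant, oxLDL, 2 libraries), untreated mutant (2 libraries), treated wild type (C57/BL6, oxLDL, 1 library) and untreated wild type (1 library). All cells were grown from marrow for 7 days in L929-conditioned medium, and treated cells then had 50 µg/ml oxLDL for 24 hours. Kindlin-3, encoded by Fermt3, is the adaptor that activates integrins in blood cells. The labels do not give the mutated residues, the age or sex of the mice, or how many mice were used. The 2 mutant libraries of a group may thus be technical repeats, and p-values rest on the spread between them. P-values over both genotypes or both treatments also take in any disagreement between the oxLDL changes of the 2 genotypes. Neither wild-type group has a replicate.

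Cells that divide copy their DNA once per cycle. In G1 the licensing factors Cdc6 and Cdt1 load the ring of Mcm2 to Mcm7 onto origins, Cdc45 and the GINS subunits turn that ring into a moving helicase at the start of S phase, and polymerases, the Pcna clamp and ligase complete the new strands. E2F factors drive most of these genes. Genes of G2 and mitosis, which encode cyclin B, Cdk1, the Aurora and Polo kinases, kinesins and centromere proteins, are switched on later, largely through promoter elements called CHR that are read by the DREAM and MuvB complexes with B-Myb and FoxM1. Macrophages grown from marrow divide in response to CSF1, the growth factor that L929-conditioned medium supplies, and slow as they mature.

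The promoters of both sets are shown first, since they differ in the elements just named. RefSeq windows on GRCm38.p6, from 250 bases before to 50 bases after the annotated start, were available for 40 of the 49 genes. Each sequence below is the 150 bases before the start, 5′ to 3′ on the strand of the gene. They are from 3 replication genes and 4 mitotic genes whose changes are described further on. Capitals mark any match, on either strand, to the E2F core (TT, then C or G at each of the next positions, then CGC), to the CHR element (TTTGAA or TTCGAA) or to the CCAAT box; overlapping matches run together. The windows lie at Mcm6 at chr1:128359706-128359855 (minus strand), Cdc6 at chr11:98908001-98908150 (plus strand), Pcna at chr2:132253181-132253330 (minus strand), Cdk1 at chr10:69352913-69353062 (minus strand), Top2a at chr11:99024190-99024339 (minus strand), Mki67 at chr7:135716380-135716529 (minus strand) and Cdc20 at chr4:118437344-118437493 (minus strand).
Mcm6: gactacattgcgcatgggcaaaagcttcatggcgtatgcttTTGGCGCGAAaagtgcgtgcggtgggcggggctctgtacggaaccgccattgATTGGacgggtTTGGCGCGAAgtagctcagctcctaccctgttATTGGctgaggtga
Cdc6: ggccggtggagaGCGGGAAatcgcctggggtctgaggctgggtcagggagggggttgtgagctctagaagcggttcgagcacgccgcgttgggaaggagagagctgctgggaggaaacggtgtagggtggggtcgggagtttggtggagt
Pcna: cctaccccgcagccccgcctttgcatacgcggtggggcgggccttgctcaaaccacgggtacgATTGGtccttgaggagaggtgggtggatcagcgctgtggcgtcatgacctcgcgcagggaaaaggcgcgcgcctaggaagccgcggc
Cdk1: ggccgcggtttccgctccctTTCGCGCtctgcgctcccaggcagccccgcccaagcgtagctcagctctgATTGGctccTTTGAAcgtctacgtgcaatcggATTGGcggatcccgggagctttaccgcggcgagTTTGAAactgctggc
Top2a: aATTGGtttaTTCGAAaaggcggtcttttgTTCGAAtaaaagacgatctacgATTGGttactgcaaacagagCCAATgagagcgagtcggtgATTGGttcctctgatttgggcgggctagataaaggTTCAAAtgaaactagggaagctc
Mki67: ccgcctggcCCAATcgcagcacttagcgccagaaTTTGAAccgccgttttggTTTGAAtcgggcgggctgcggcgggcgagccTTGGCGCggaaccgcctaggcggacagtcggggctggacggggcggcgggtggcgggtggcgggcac
Cdc20: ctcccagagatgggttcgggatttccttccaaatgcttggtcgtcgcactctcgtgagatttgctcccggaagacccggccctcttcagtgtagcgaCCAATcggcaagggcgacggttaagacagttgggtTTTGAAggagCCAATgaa

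Of the 21 replication genes with a window, 13 (61.9%) held an E2F core, against 19.4% of the 9550 tested genes with a window and 10.9% of all 27025 genes with one. Of the 19 mitotic genes with a window, 3 (15.8%) held an E2F core. The CHR element showed the opposite division, with 15 of 19 mitotic genes (78.9%) and 4 of 21 replication genes (19%), against 16.4% of the tested genes and 21.7% of all genes. A CCAAT box was present in 17 of 19 mitotic genes (89.5%) and 13 of 21 replication genes (61.9%), against 43.1% of the tested genes and 41.1% of all genes. In the printed stretches, Mcm6 carries 2 runs of overlapping E2F matches, whereas Top2a and Mki67 each carry more than 1 CHR match close to CCAAT boxes. As a check of the annotated starts, 30 consecutive bases a short way past each start were looked for in GENCODE transcripts of the gene. They were found for 38 of 46 windows. They were not found for 4 replication windows, that of Mcm6 among them, or for 4 mitotic windows, that of Mki67 among them. The start used there is thus not backed by this check. A first exon that ends within those bases would also give no match, so the check does not show the start to be wrong. A match describes the letters only and is no evidence of binding in these cells.

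**Figure D1:**
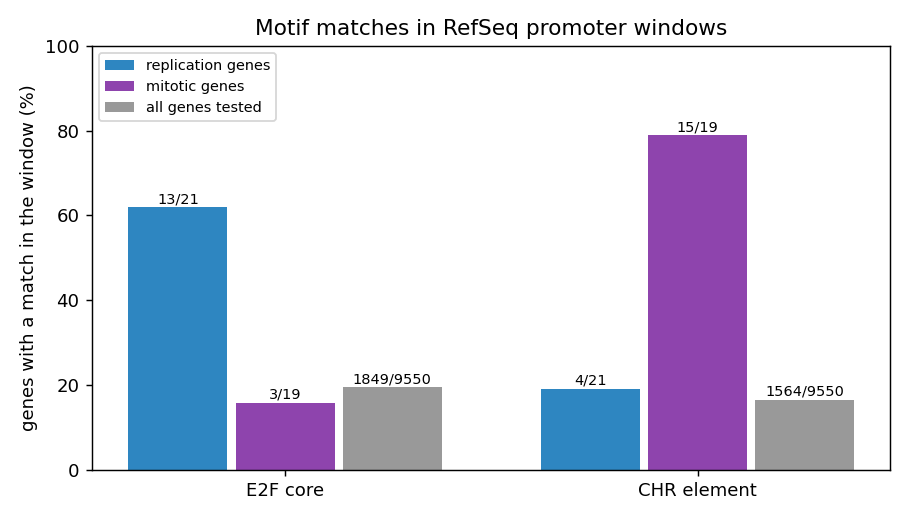
Percentage of genes whose RefSeq window holds a match to the E2F core or to the CHR element, for replication genes, mitotic genes and all tested genes; the numbers above the bars are genes with a match over genes with a window. E2F cores stand at 61.9% of replication genes and CHR elements at 78.9% of mitotic genes.

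Read totals ran between 11281700 and 24273600 estimated counts per library, and 1 count was worth between 0.0406 and 0.0882 CPM, a gene's count scaled to the library total with TMM factors. Fermt3 read 146 and 153 CPM in treated mutant libraries, 241 and 249 CPM in untreated mutant libraries, 188 CPM in treated wild type and 403 CPM in untreated wild type; the transcript is present in the mutant, so its level does not check the genotype labels. The 6 macrophage markers summed to between 9527 and 28989 CPM, Lyz2 being the largest part, and none was at 0. With oxLDL Csf1r, Emr1, Fcgr1 and Lyz2 were lower in both genotypes, and Cd68 and Mertk were higher. Csf1r, which codes for the CSF1 receptor, stood at 700 and 646 CPM in treated mutant and 1950 and 1692 CPM in untreated mutant libraries. It stood at 796 CPM in treated and 1323 CPM in untreated wild type, and the part of these markers was not tested. Lymphocyte, erythroid and mast cell lists summed to at most 0.265 CPM in any library, fibroblast and dendritic lists to at most 5.52 CPM. The 9 neutrophil and granulocyte progenitor genes summed to 39.5 CPM in untreated wild type, where none was at 0, and to between 0.794 and 2.30 CPM in the other 5 libraries. The 7 pancreas genes, listed because earlier work on these data had met them, summed to 154 and 122 CPM in treated mutant libraries and 208 CPM in untreated wild type, and to at most 0.0708 CPM in the other 3. Each comparison of treatment within a genotype, or of genotype within a treatment, thus has this signal on 1 side only. Its part in those results was not tested.

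The treated mutant libraries differed from each other in these genes, which bears on every result that uses them. Replicate 1 was above replicate 2 in 24 of 24 mitotic genes, by a median ratio of 2.46 that ranged between 1.71 for Cdk1 and 3.63 for Cenpf. The same held for 24 of 25 replication genes, with a median ratio of 1.38, Cdt1 being the exception at 0.992. Across all tested genes the median absolute difference between these replicates was 0.14 (log2), against a median difference of 1.22 for mitotic genes. The untreated mutant libraries lay close together, with median ratios of replicate 1 over replicate 2 of 1.01 for mitotic genes and 0.922 for replication genes. The 3 stem and progenitor markers, Kit, Cd34 and Flt3, summed to 73.2 and 25.1 CPM in treated mutant libraries, 12.4 and 9.20 CPM in untreated mutant libraries, 6.90 CPM in treated wild type and 2.51 CPM in untreated wild type. Most of the treated sums was Kit, at 69.6 and 24.1 CPM in treated mutant libraries, 4.94 and 2.62 CPM in untreated mutant libraries, 6.58 CPM in treated wild type and 0.205 CPM in untreated wild type. Cd34 stood at 3.57 and 0.941 CPM in treated mutant libraries, 7.41 and 6.44 CPM in untreated mutant libraries, 0.320 CPM in treated wild type and 2.30 CPM in untreated wild type, and Flt3 was at 0 in 5 libraries. Kit was thus higher and Cd34 lower with oxLDL in both genotypes, and both were higher in the first treated mutant library than in the second. Their part in the results was not tested.

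**Figure D2:**
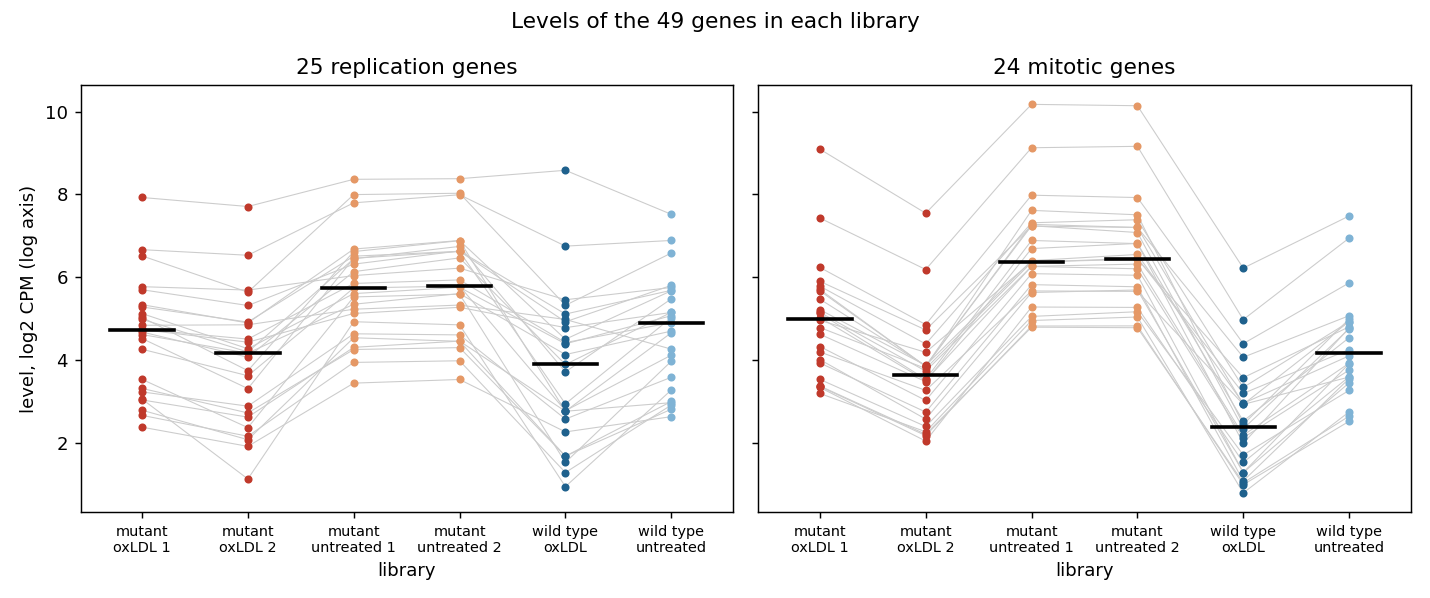
Level of each gene (log2 CPM, a log axis) in each of the 6 libraries, replication genes on the left and mitotic genes on the right; grey lines join 1 gene across libraries and black bars are medians. Untreated mutant libraries are highest for most genes, treated wild type is lowest for all 24 mitotic genes, and the treated mutant libraries differ from each other more for mitotic than for replication genes.

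With oxLDL, every replication and mitotic gene was lower in mutant macrophages. All 25 replication genes and all 24 mitotic genes fell (edgeR quasi-likelihood test, Benjamini-Hochberg adjusted p under 0.05 over 12689 genes), where 19.1% of all tested genes were called lower. The median change was -1.52 (log2) for replication genes, a 2.87-fold decrease, and -2.14 for mitotic genes, a 4.41-fold decrease, whereas the median over all tested genes was 0.01. Adjusted p-values ran from 0.000833 (Mcm6) up to 0.0426 (Mcm2) in replication and from 0.00344 (Kif20a) up to 0.0387 (Mki67) in mitosis. In bulk RNA, fewer dividing cells and less of each transcript per cell cannot be told apart. Without either untreated mutant library the calls fell to between 18 and 21 replication genes and to 17 mitotic genes, each still lower in direction, where between 12.2% and 13.6% of all genes were called lower.

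Among the licensing genes, the helicase subunits fell by different amounts. Mcm2 stood at 34.8 and 19.3 CPM in treated mutant libraries, against 48.6 and 54.0 CPM in untreated mutant libraries, and at 21.0 CPM in treated wild type and 33.6 CPM in untreated wild type; the change in the mutant was -0.92 ± 0.27 (log2, SE; adjusted p = 0.0426). Mcm5, another subunit of the same ring, stood at 31.6 and 18.3 CPM in treated mutant libraries, against 87.2 and 107 CPM in untreated mutant libraries, and at 13.1 CPM in treated wild type and 44.5 CPM in untreated wild type, and the mutant change was -1.96 ± 0.27 (log2, SE; adjusted p = 0.00353). Mcm7 stood at 25.6 and 16.7 CPM in treated mutant libraries, against 70.2 and 88.4 CPM in untreated mutant libraries, and at 14.8 CPM in treated wild type and 35.5 CPM in untreated wild type, with a mutant change of -1.90 ± 0.23 (log2, SE; adjusted p = 0.00234). For Mcm5 and Mcm7 all 3 treated libraries lay below all 3 untreated ones, while for Mcm2 the first treated mutant library was above untreated wild type. Mcm7 shares 9.49% of its transcript stretches with other genes, so its level is uncertain to that extent. The loading ATPase Cdc6 stood at 6.89 and 4.21 CPM in treated mutant libraries, against 23.2 and 21.9 CPM in untreated mutant libraries, and at 3.20 CPM in treated wild type and 7.98 CPM in untreated wild type, and its change was the largest of the 8 licensing genes, -2.01 ± 0.25 (log2, SE; adjusted p = 0.00273). Its partner Cdt1, which geminin and proteolysis hold in check outside G1, stood at 28.6 and 28.8 CPM in treated mutant libraries, against 37.4 and 40.1 CPM in untreated mutant libraries, and at 31.5 CPM in treated wild type and 19.2 CPM in untreated wild type. In Cdt1 the mutant change was small, -0.43 ± 0.10 (log2, SE; adjusted p = 0.0217), both treated mutant libraries were above untreated wild type, and wild type was 0.71 higher with oxLDL (log2, 1 library against 1). The other subunits, Mcm3, Mcm4 and Mcm6, changed by -0.96, -1.46 and -1.30 in the mutant (log2).

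The factors that activate the loaded helicase fell together in the mutant. Mcm10, which helps origin firing, stood at 11.6 and 5.15 CPM in treated mutant libraries, against 46.0 and 48.1 CPM in untreated mutant libraries, and at 2.88 CPM in treated wild type and 15.7 CPM in untreated wild type. Its change of -2.48 ± 0.35 (log2, SE; adjusted p = 0.00401) was the second largest among replication genes, and no treated library reached any untreated one. Cdc45, Gins1 and Gins2 changed by -1.22, -1.32 and -1.52 (log2). Gins2 shares 64.7% of its transcript stretches with a gene on the opposite strand, and the strand setting of the authors' counting is not stated, so its level is uncertain.

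The enzymes that supply deoxynucleotides split between large and small changes. Rrm2, the S phase subunit of ribonucleotide reductase, stood at 32.6 and 13.4 CPM in treated mutant libraries, against 98.3 and 118 CPM in untreated mutant libraries, and at 6.77 CPM in treated wild type and 25.2 CPM in untreated wild type, with a mutant change of -2.23 ± 0.39 (log2, SE; adjusted p = 0.00832). Tk1, the cytosolic thymidine kinase, stood at 8.31 and 2.18 CPM in treated mutant libraries, against 30.4 and 28.8 CPM in untreated mutant libraries, and at 1.92 CPM in treated wild type and 9.67 CPM in untreated wild type, a change of -2.47 ± 0.54 (log2, SE; adjusted p = 0.0163). For Tk1 all treated libraries were below all untreated ones, whereas for Rrm2 the first treated mutant library lay above untreated wild type. Thymidylate synthase, Tyms, stood at 54.6 and 51.6 CPM in treated mutant libraries, against 65.7 and 74.4 CPM in untreated mutant libraries, and at 43.8 CPM in treated wild type and 53.9 CPM in untreated wild type. Its change of -0.40 ± 0.11 (log2, SE; adjusted p = 0.0322) was the smallest of the 49 genes in the mutant, and the treated and untreated libraries overlapped. Rrm1, the large reductase subunit, changed by -1.87 (log2).

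At the fork, Pola1, Prim1, Fen1 and Lig1, which prime, trim and seal the new strands, changed by -1.26, -1.55, -1.07 and -1.65 (log2) in the mutant, and in each all treated libraries lay below all untreated ones. Fen1 shares 73.7% of its stretches with a gene on the opposite strand and is uncertain. Pcna, the sliding clamp that also serves DNA repair, differed from these 4 in its wild-type values. It stood at 243 and 209 CPM in treated mutant libraries, against 329.6 and 333 CPM in untreated mutant libraries, and at 383 CPM in treated wild type and 183 CPM in untreated wild type. The mutant change was -0.55 ± 0.11 (log2, SE; adjusted p = 0.0118), yet the highest value of all 6 libraries was in treated wild type and the lowest in untreated wild type.

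Of the genes that control entry into S phase, the cyclins and Uhrf1 fell further than E2f1. E2f1, a transcription factor of the E2F family, stood at 26.6 and 21.5 CPM in treated mutant libraries, against 34.9 and 38.6 CPM in untreated mutant libraries, and at 27.5 CPM in treated wild type and 35.4 CPM in untreated wild type. All treated libraries were below all untreated ones, with a mutant change of -0.61 ± 0.14 (log2, SE; adjusted p = 0.0198). Cyclin E1, Ccne1, stood at 8.19 and 6.14 CPM in treated mutant libraries, against 19.8 and 21.9 CPM in untreated mutant libraries, and at 6.77 CPM in treated wild type and 7.83 CPM in untreated wild type, a mutant change of -1.54 ± 0.19 (log2, SE; adjusted p = 0.00272). Cyclin E2, Ccne2, stood at 19.1 and 12.3 CPM in treated mutant libraries, against 53.4 and 55.1 CPM in untreated mutant libraries, and at 6.84 CPM in treated wild type and 17.3 CPM in untreated wild type, a mutant change of -1.78 ± 0.21 (log2, SE; adjusted p = 0.00242). Both cyclins had a treated mutant library above untreated wild type, and Ccne2 has 12.8% of its stretches opposite another gene. Uhrf1, which brings the maintenance DNA methyltransferase to new strands, stood at 22.9 and 9.91 CPM in treated mutant libraries, against 87.8 and 98.4 CPM in untreated mutant libraries, and at 7.67 CPM in treated wild type and 32.5 CPM in untreated wild type. Its change of -2.50 ± 0.37 (log2, SE, adjusted p = 0.0045) was the largest among replication genes, and treated and untreated libraries did not overlap. Uhrf1 shares 9.05% of its stretches with sequence of genes that the count table does not list, so its level is uncertain to that extent.

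The genes of mitotic entry fell by between -1.67 and -2.33 (log2) in the mutant. Cyclin A2, Ccna2, stood at 44.3 and 14.5 CPM in treated mutant libraries, against 151 and 135 CPM in untreated mutant libraries, and at 5.05 CPM in treated wild type and 27.0 CPM in untreated wild type, a mutant change of -2.28 ± 0.48 (log2, SE; adjusted p = 0.0144). Cyclin B1, Ccnb1, stood at 32.5 and 11.3 CPM in treated mutant libraries, against 76.6 and 73.7 CPM in untreated mutant libraries, and at 4.35 CPM in treated wild type and 13.5 CPM in untreated wild type, a mutant change of -1.77 ± 0.44 (log2, SE; adjusted p = 0.0265). Both cyclins were higher in the first treated mutant library than in untreated wild type and lower in the second. Their kinase Cdk1 stood at 31.1 and 18.2 CPM in treated mutant libraries, against 82.7 and 86.3 CPM in untreated mutant libraries, and at 11.9 CPM in treated wild type and 27.9 CPM in untreated wild type, a mutant change of -1.77 ± 0.25 (log2, SE; adjusted p = 0.00375). Foxm1, the transcription factor of G2 and mitosis, stood at 35.5 and 13.3 CPM in treated mutant libraries, against 76.7 and 79.7 CPM in untreated mutant libraries, and at 4.54 CPM in treated wild type and 15.1 CPM in untreated wild type, a mutant change of -1.67 ± 0.42 (log2, SE; adjusted p = 0.0258). In all 4 the order was the same, with untreated mutant highest, then the first treated mutant library, untreated wild type, the second treated mutant library, and treated wild type lowest. Ccnb1 shares 18.9% of its stretches with pseudogenes that the count table does not list, and Ccna2 has 10.8% opposite another gene, so both levels are uncertain. Ccnb2 changed by -2.33.

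The kinases and the chromosomal passenger complex fell in the same way. Polo kinase, Plk1, stood at 16.1 and 5.94 CPM in treated mutant libraries, against 49.5 and 51.7 CPM in untreated mutant libraries, and at 2.43 CPM in treated wild type and 10.9 CPM in untreated wild type, a mutant change of -2.19 ± 0.42 (log2, SE; adjusted p = 0.0111). Aurora B, Aurkb, stood at 11.6 and 5.25 CPM in treated mutant libraries, against 33.2 and 35.9 CPM in untreated mutant libraries, and at 3.26 CPM in treated wild type and 9.62 CPM in untreated wild type, a mutant change of -2.03 ± 0.35 (log2, SE; adjusted p = 0.00774). Its partner Birc5, also called survivin, stood at 20.0 and 8.12 CPM in treated mutant libraries, against 67.9 and 66.1 CPM in untreated mutant libraries, and at 2.43 CPM in treated wild type and 15.04 CPM in untreated wild type, a mutant change of -2.24 ± 0.39 (log2, SE; adjusted p = 0.00768). In these 3 genes the first treated mutant library was again above untreated wild type and the second below it. Aurora A, Aurka, stood at 10.1 and 4.11 CPM in treated mutant libraries, against 38.8 and 38.6 CPM in untreated mutant libraries, and at 2.88 CPM in treated wild type and 12.1 CPM in untreated wild type, a mutant change of -2.43 ± 0.39 (log2, SE; adjusted p = 0.00581). Aurka was the 1 mitotic gene of 24 in which all treated libraries lay below all untreated ones. Cdca8, borealin, stood at 18.3 and 9.61 CPM in treated mutant libraries, against 50.8 and 50.5 CPM in untreated mutant libraries, and at 7.61 CPM in treated wild type and 12.02 CPM in untreated wild type, a mutant change of -1.85 ± 0.29 (log2, SE; adjusted p = 0.00554), and its wild-type change of -0.65 was the smallest of the mitotic genes there.

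Spindle checkpoint genes and kinesins followed. Bub1, Bub1b and Ttk, kinases of the checkpoint, changed by -1.78, -2.03 and -1.87 (log2) in the mutant, and Cdc20, the activator that the checkpoint restrains, by -2.19. Kif20a, a kinesin of cytokinesis, stood at 24.6 and 11.1 CPM in treated mutant libraries, against 103 and 113 CPM in untreated mutant libraries, and at 5.75 CPM in treated wild type and 23.2 CPM in untreated wild type. Its change of -2.59 ± 0.35 (log2, SE; adjusted p = 0.00344) was the largest of all 49 genes, although 23.3% of its stretches lie opposite another gene. Kif11, Tpx2, Nusap1 and Prc1, which build and bundle spindle microtubules, changed by -2.20, -1.78, -2.30 and -2.10.

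Among centromere and chromosome genes, Cenpf, a large kinetochore protein, stood at 52.1 and 14.4 CPM in treated mutant libraries, against 196 and 182 CPM in untreated mutant libraries, and at 5.43 CPM in treated wild type and 31.8 CPM in untreated wild type, a mutant change of -2.50 ± 0.54 (log2, SE; adjusted p = 0.0164). Topoisomerase II alpha, Top2a, stood at 172 and 72.8 CPM in treated mutant libraries, against 559 and 572 CPM in untreated mutant libraries, and at 31.4 CPM in treated wild type and 123 CPM in untreated wild type, a mutant change of -2.21 ± 0.38 (log2, SE; adjusted p = 0.00778). Mki67, which codes for the proliferation marker Ki-67, stood at 546 and 187 CPM in treated mutant libraries, against 1156 and 1130.1 CPM in untreated mutant libraries, and at 74.5 CPM in treated wild type and 178 CPM in untreated wild type. Its mutant change of -1.64 ± 0.46 (log2, SE; adjusted p = 0.0387) was the smallest of the mitotic genes, and its treated mutant libraries were both above untreated wild type. Cenpa, the centromeric histone, and the kinesin Cenpe changed by -1.93 and -2.24 (log2).

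In wild type each arm is 1 library, so changes are given by size, and mitotic genes were also lower with oxLDL in size. At least a 2-fold decrease was seen for 12 of 25 replication genes and 22 of 24 mitotic genes, where 13.7% of all tested genes were as much lower. Pcna alone of the replication genes was at least 2-fold higher, where 9.90% of all genes were. With the spread of the mutant pairs taken for the single wild-type libraries too, the 4-group test called 9 replication and 5 mitotic genes lower, where 12.8% of all tested genes were, and 2 replication genes, Pcna and Cdt1, higher, where 10.4% were. The median difference was -0.996 (log2) for replication genes and -1.66 for mitotic genes. Nusap1 had the largest decrease, -2.75, followed by Birc5 at -2.58 and Cenpf at -2.53. The mutant and wild-type changes share no library: over the 49 genes, 47 had the same sign, 40 were larger in the mutant, and Pearson's r was 0.88, given as a description of genes that share libraries and normalization.

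**Figure D3:**
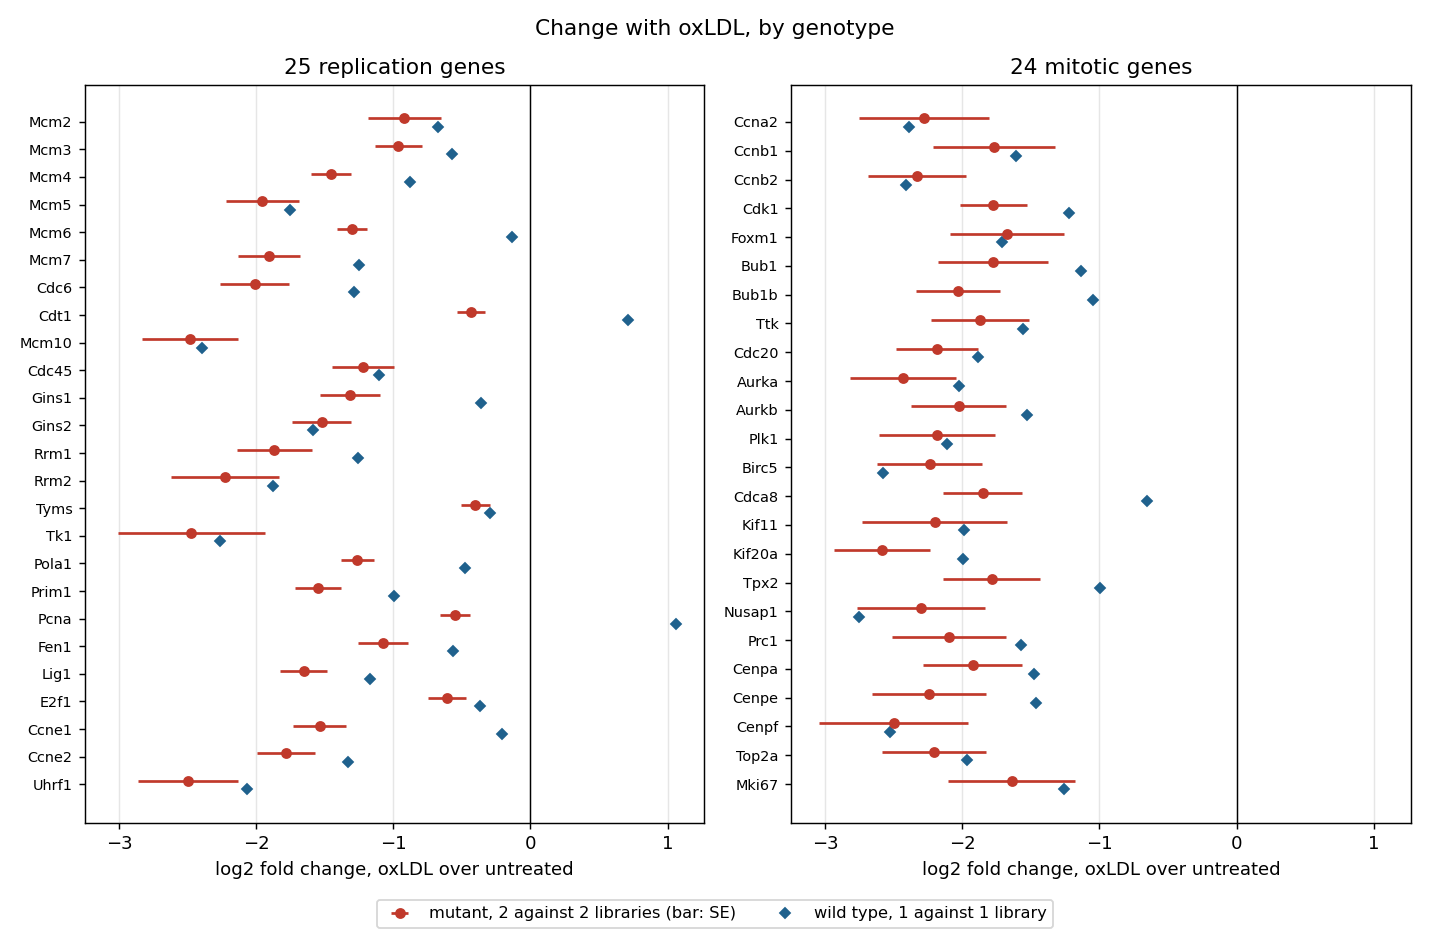
Log2 fold change of each gene with oxLDL over untreated, in the mutant (red circles with standard errors, 2 libraries against 2) and in wild type (blue diamonds, 1 library against 1), in order of role. All mutant points lie below 0, and in wild type Pcna (1.06) and Cdt1 (0.71) lie above it.

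Over both genotypes, with genotype as a term, 23 of 25 replication genes and all 24 mitotic genes were called lower with oxLDL, where 21.4% of all tested genes were. The medians were -1.27 for replication and -1.97 for mitosis (log2). Pcna (-0.03 ± 0.32, adjusted p = 0.959) and Cdt1 (-0.06 ± 0.23, adjusted p = 0.861) were not called; the sign of Pcna turned with upper quartile factors and with library totals. Values of all 3 treated libraries lay below all 3 untreated ones for 16 of 25 replication genes and 1 of 24 mitotic genes, where 23.3% of all tested genes did. In mitotic genes the first treated mutant library was above untreated wild type in 23 of 24 genes and the second in 1 of 24.

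Without oxLDL, 17 of the 49 genes were called higher in mutant than in wild-type macrophages, and most of the others stood higher in level without passing the test. Both untreated mutant libraries were above untreated wild type in 24 of 24 mitotic and 24 of 25 replication genes, where 38.7% of all tested genes were. The test called 10 replication and 7 mitotic genes higher and none lower, where 4.24% of all tested genes were called higher and 2.82% lower. The median difference was 1.05 (log2) for replication genes, 2.07-fold, and 2.22 for mitotic genes, 4.64-fold, against -0.01 over all tested genes. Here the single wild-type library is assumed to vary like the mutant pairs. Without untreated mutant replicate 1 the calls dropped to 0 and 0, and without replicate 2 to 1 and 0, where 0.448% and 1.49% of all genes were called higher. Without treated mutant replicate 1 or replicate 2, 22 replication and 24 mitotic genes were called, where 8.84% and 8.28% of all genes were.

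Differences follow as log2 ± SE. The called replication genes included Cdt1 (1.02 ± 0.13, adjusted p = 0.0209), Mcm6 (1.01 ± 0.14, adjusted p = 0.0228), Cdc6 (1.497 ± 0.32, adjusted p = 0.0493), Pcna (0.85 ± 0.14, adjusted p = 0.03), Ccne1 (1.41 ± 0.25, adjusted p = 0.0337) and Ccne2 (1.65 ± 0.28, adjusted p = 0.0313). Cdc45, Pola1, Prim1 and Lig1 made up the rest, with differences between 0.99 and 1.47. The called mitotic genes were Cdc20 (2.25 ± 0.39, adjusted p = 0.0342), Cdca8, Bub1b, Cdk1, Kif20a, Ccnb2 and Cenpa, with differences between 1.60 (Cdk1) and 2.30 (Cenpa). Mki67 showed the largest difference of the 49, 2.68 ± 0.64 (log2, SE; adjusted p = 0.0622), and was not called. E2f1 was nearly level, 0.05 ± 0.17 (log2, SE; adjusted p = 0.874), one untreated mutant library being below and the other above untreated wild type. The neutrophil genes named above were highest in the same untreated wild-type library, at 39.5 CPM in sum, and their part in this result was not tested. The pancreas genes stood at 208 CPM in sum in that library and at most 0.0708 CPM in untreated mutant libraries. Their part was not tested either.

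With oxLDL, mitotic genes again stood higher in the mutant in level, but no gene of either set was called, where 0.299% of all tested genes were called higher and 0.181% lower. Both treated mutant libraries were above treated wild type in 24 of 24 mitotic genes and 17 of 25 replication genes, where 38.8% of all tested genes were. The median difference was 0.50 (log2) for replication genes and 1.94 for mitotic genes. At an unadjusted p under 0.05, 7 replication and 21 mitotic genes were higher, where 8.29% of all tested genes were, and 1 replication gene was lower, where 6.04% were. DESeq2 called 1 replication and 7 mitotic genes higher, where it called 1.82% of all tested genes, and 1 replication gene lower, where it called 1.26%. On log2 of CPM plus 1, limma called none of the 49, where it called 0.465% of all tested genes higher and 0.221% lower. The largest difference was that of Cenpf, 2.62 ± 0.81 (log2, SE; adjusted p = 0.24), and Pcna had a difference in the other direction, -0.76 ± 0.13 (log2, SE; adjusted p = 0.09). The counts changed when a treated mutant library was left out: without replicate 1, 0 replication and 11 mitotic genes were called higher, where 1.12% of all genes were, and without replicate 2, 9 and 24, where 3.04% were.

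Over both treatments, with treatment as a term, 4 of 25 replication genes and 17 of 24 mitotic genes were called higher in the mutant and none lower, where 2.54% of all tested genes were called higher and 1.51% lower. The replication genes were Rrm2 (1.95 ± 0.37, adjusted p = 0.0447), Ccne2 (1.44 ± 0.21, adjusted p = 0.0322), Cdc45 (1.42 ± 0.20, adjusted p = 0.0309) and Gins2 (1.09 ± 0.20, adjusted p = 0.0418). Mcm10 (1.57 ± 0.32, adjusted p = 0.0505) and Tk1 (1.56 ± 0.49, adjusted p = 0.123) had differences between those of Ccne2 and Rrm2 and were not called. All 5 genes of mitotic entry were called, among them Ccna2 (2.47 ± 0.45, adjusted p = 0.0435) and Cdk1 (1.33 ± 0.25, adjusted p = 0.0446). Cenpf had the largest difference of the 49 (2.59 ± 0.51, adjusted p = 0.048), followed by Mki67 (2.49 ± 0.44, adjusted p = 0.04). Aurka (1.53 ± 0.36, adjusted p = 0.0672) and Cdca8 (1.49 ± 0.36, adjusted p = 0.0717) were among the 7 mitotic genes not called. The smallest differences among replication genes were those of Pcna (-0.03), E2f1 (-0.07) and Tyms (0.33), and the sign turned with library totals for Pcna and E2f1 and with upper quartile factors for Pcna. No gene of either set was called without untreated mutant replicate 1 or without untreated mutant replicate 2. In those runs 0.173% and 0.0394% of all genes were called higher, so calls were lost over all genes and not in these sets alone. A run without a wild-type library compares the genotypes within 1 treatment only and describes no effect over both. The replication median was 1.05 (log2) without treated wild type and 0.50 without untreated wild type. Without treated mutant replicate 2, 15 replication and 24 mitotic genes were called, where 4.34% of all genes were called higher.

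**Figure D4:**
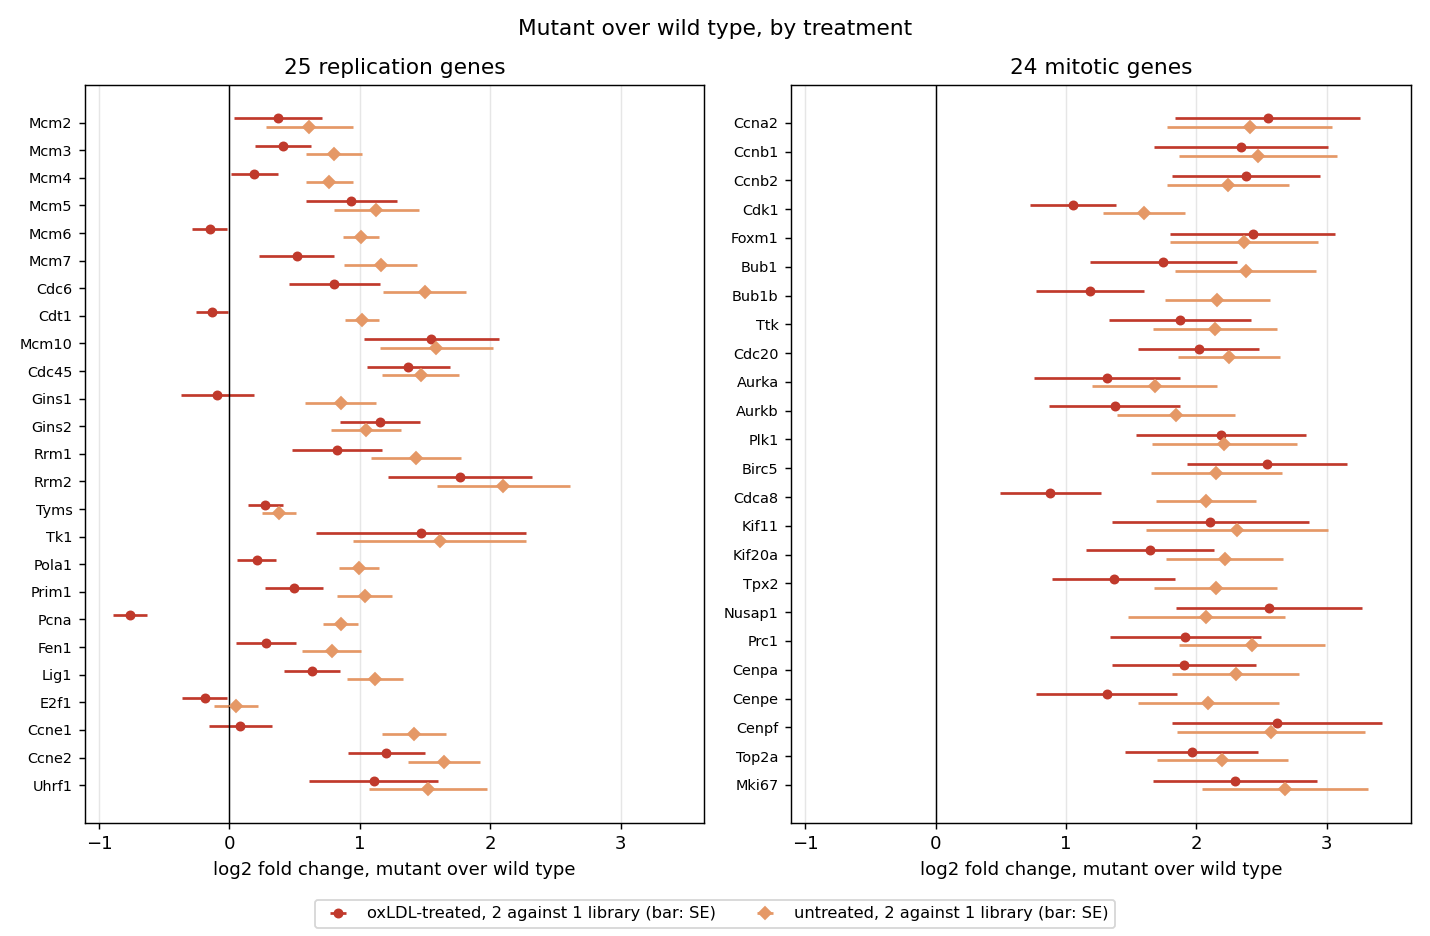
Log2 fold change of each gene in mutant over wild type, in oxLDL-treated cells (red circles) and untreated cells (orange diamonds), with standard errors from the fit, 2 mutant libraries against 1 wild-type library each. All mitotic genes lie above 0 in both conditions, and Pcna lies at -0.76 with oxLDL and 0.85 without it.

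Mitotic genes were also compared with replication genes inside each library, a contrast that no library scaling can alter. The median log2 level of mitotic genes minus that of replication genes was 0.26 and -0.53 in treated mutant libraries, 0.63 and 0.66 in untreated mutant libraries, -1.501 in treated wild type and -0.73 in untreated wild type. Levels here are not per length, so the sign within a library has no meaning and only the differences between libraries do. All 4 mutant libraries lay above both wild-type libraries. Within each genotype the treated libraries lay below the untreated ones.

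Whether the oxLDL change differed between genotypes was tested by the interaction of genotype and oxLDL. Pcna was the only gene of the 49 called, at -1.61 ± 0.19 (log2, SE; adjusted p = 0.0391), where 0.299% of all tested genes were called lower and 0.189% higher. With oxLDL it fell to 243 and 209 CPM in the mutant, against 330 and 333 CPM untreated, whereas in wild type it stood at 383 CPM with oxLDL and 183 CPM without. The pancreas genes split the libraries along the same contrast, at 154 and 122 CPM in treated mutant libraries and 208 CPM in untreated wild type. They summed to at most 0.0708 CPM in untreated mutant and treated wild type. These patterns cannot be told apart in this design, and the part of the pancreas signal was not tested. The call was lost without untreated mutant replicate 1 (adjusted p = 0.132) and without replicate 2 (adjusted p = 0.123), at near the same size. The median interaction was -0.48 for replication genes and -0.32 for mitotic genes (log2). At an unadjusted p under 0.05, 6 replication and 0 mitotic genes were lower and none higher, where 5.85% of all tested genes were lower and 5.13% higher. DESeq2 called 3 and 0 lower and none higher, where it called 1.25% of all tested genes lower and 0.489% higher. On log2 of CPM plus 1, limma called only Pcna, lower, where it called 0.323% of all tested genes lower and 0.221% higher. Without treated mutant replicate 1, 4 replication and 8 mitotic genes were called lower, where 1.56% of all genes were, and without replicate 2, 1 and 0, where 0.440% were. Pcna shares 13.8% of its transcript stretches with a pseudogene that the count table does not list, so its level is uncertain to that extent.

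**Figure D5:**
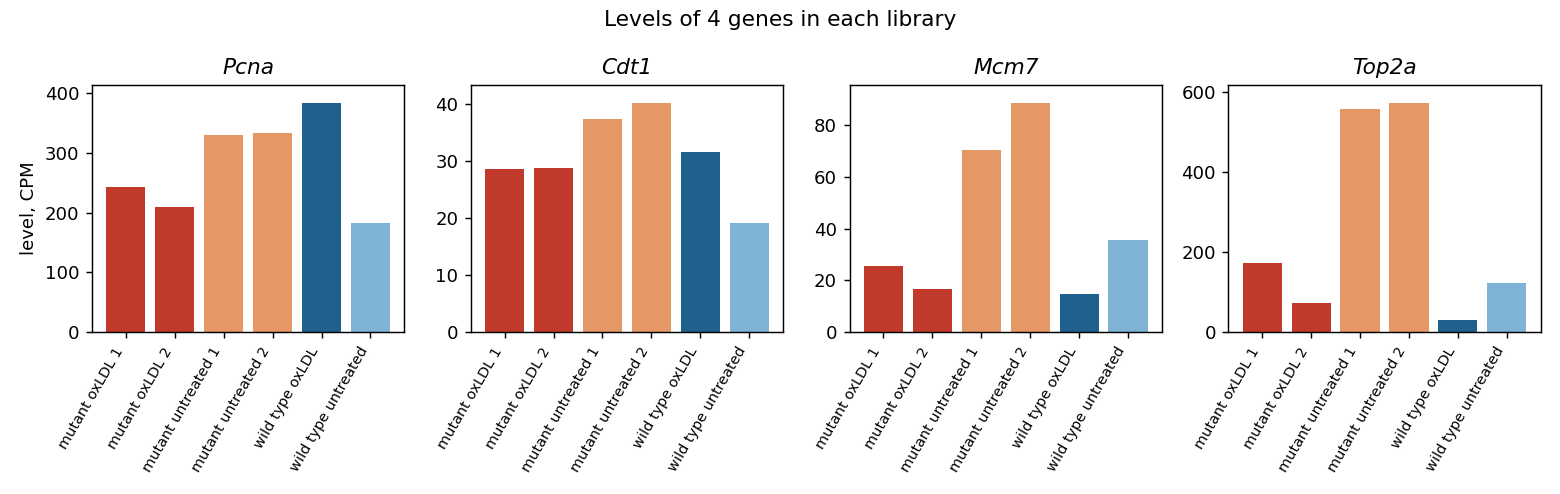
Level (CPM) of Pcna, Cdt1, Mcm7 and Top2a in each of the 6 libraries, 1 bar per library, each axis starting at 0. Pcna and Cdt1 are higher in treated than in untreated wild type and lower in treated than in untreated mutant, whereas Mcm7 and Top2a are lower with oxLDL in both genotypes.

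Genes of the same pathways outside the 49 were counted from 3 further lists. With oxLDL in the mutant, 32 of 47 other replication genes fell and 1 rose, where 19.1% of all tested genes were called lower and 16.5% higher, with a median of -0.84 (log2). The largest decreases were those of the leading-strand polymerase Pole (-1.99 ± 0.22, adjusted p = 0.00181), Timeless (-1.81 ± 0.31, adjusted p = 0.00785) and Ticrr (-1.81 ± 0.38, adjusted p = 0.0143), which act at the fork and at origin firing. The gene that rose was the clamp loader subunit Rfc2, named for its direction after its values were seen, at 56.4 and 61.3 CPM in treated mutant libraries, against 39.2 and 37.0 CPM in untreated mutant libraries (0.63 ± 0.10, adjusted p = 0.00639). Of 63 other mitotic genes 58 fell and none rose, with a median of -2.002, led by Troap (-2.74 ± 0.42, adjusted p = 0.00517), the centromere gene Cenpm (-2.63 ± 0.39, adjusted p = 0.00462) and Ckap2 (-2.59 ± 0.29, adjusted p = 0.00198). Of 17 transcription regulators of the cell cycle 9 fell and 1, E2f6, rose (0.58 ± 0.13, adjusted p = 0.0184). The largest decreases there were those of the repressors E2f7 (-2.28 ± 0.36, adjusted p = 0.00581) and E2f8 (-2.11 ± 0.37, adjusted p = 0.0079) and of Mybl2 (-2.06 ± 0.29, adjusted p = 0.00381), the gene of B-Myb. E2f7 stood at 8.11 and 3.57 CPM in treated mutant libraries, against 29.1 and 28.3 CPM in untreated mutant libraries, and at 1.21 CPM in treated wild type and 5.93 CPM in untreated wild type, and Mybl2 at 6.61 and 3.86 CPM in treated mutant libraries, against 19.4 and 24.6 CPM in untreated mutant libraries, and at 2.62 CPM in treated wild type and 5.98 CPM in untreated wild type. For the genotype over both treatments, 7 of the 47, 27 of the 63 and 1 of the 17 were called higher in the mutant and none lower, where 2.54% of all tested genes were called higher and 1.51% lower. With 1 gene of 17, the share of the regulators is close to that of all genes.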

How the data were processed

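The authors used Bowtie2 2.1.0 for alignment and RSEM 1.2.15 for counting, as the submitters' processing notes list; the labels' protocols describe a stranded polyadenylated RNA kit. Those notes name hg19, whereas the gene symbols are mouse, so the build used for counting is one not given in the sources used here. The authors deposited RSEM expected counts and a signal, CPM scaled with TMM in edgeR by the authors, whose values return whole reads for 100% of genes (tolerance 1e-06). Expected counts were rounded and fitted in edgeR 4.0.16 (R 4.3.3) with TMM, filterByExpr and quasi-likelihood F-tests: 4 group means, or additive models for effects over both genotypes or treatments. P-values were adjusted by Benjamini-Hochberg over 12689 genes, threshold 0.05. SE is the log2 fold change over the square root of F. Changes in wild type used a prior count of 2. CPM here are from the counts. DESeq2 1.42.0 and limma 3.58.1 were alternatives. The fit was tested on simulated counts. The sum of counts in a library limits precision. The 49 genes, the further lists, the markers and the tests were chosen with earlier results of these data known. Genes named with values in every library covered each role except the spindle checkpoint. They took in the 3 largest and 3 smallest changes per set, for oxLDL in the mutant and for genotype over both treatments. Those called for the interaction and the 3 largest of each further list were named too. Shared sequence was counted from mouse transcripts (GENCODE), and promoter sequences are RefSeq's.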

Additional observations from a re-analysis of the deposited data

Results flagged for a closer look

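Pcna, the clamp of the replication fork, was lower with oxLDL in the mutant and higher with oxLDL in wild type. The oxLDL change in the mutant minus that in wild type was -1.61 (log2, edgeR quasi-likelihood interaction test, adjusted p = 0.0391). The size lay between -1.73 and -1.51 over every alternative run, and the call was lost when either untreated mutant library was left out. Each wild-type value is 1 library. The libraries with pancreas transcripts fall on 1 side of this contrast, and the part of that signal was not tested.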

How the results depend on the processing

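In sign, all 49 genes stayed lower with oxLDL in the mutant, and all 24 mitotic genes higher in the mutant in each treatment, under every alternative run; DESeq2 called 23 replication and 23 mitotic genes lower with oxLDL in the mutant (16.8% of all genes). The genotype counts moved most, and shares in parentheses are of all genes called in that direction. Higher in untreated mutant were 22 replication and 24 mitotic genes with no filter on low counts (7.81%), 18 and 19 with DESeq2 (6.03%), 17 mitotic with library totals (6.58%) and 16 mitotic with limma at either pseudocount (5.18% and 5.27%). Higher in treated mutant were 10 and 24 with no filter (3.63%), and 1 and 7 with DESeq2 (1.82%). Over both treatments 15 replication genes were higher with no filter (5.10%) and 14 with DESeq2 (6.79%). The interaction gave 4 replication genes lower with no filter (2.04%) and 3 with DESeq2 (1.25%). Tested as if single libraries varied like the mutant pairs, 9 replication and 5 mitotic genes were lower with oxLDL in wild type (12.8%) and 2 replication genes higher (10.4%). The causes were not tested. Library totals moved the median of all genes by 0.14 (log2) in untreated mutant against wild type.

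Leaving out 1 library at a time, counts of replication and mitotic genes ranged over 0 to 22 and 0 to 24 for untreated genotype, 0 to 9 and 0 to 24 for treated genotype, 0 to 15 and 0 to 24 over both treatments, and 0 to 4 and 0 to 8 for the interaction. With oxLDL they ranged over 18 to 25 and 17 to 24 in the mutant, and 17 to 25 and 21 to 24 over both genotypes. The medians ranged as follows (log2, replication then mitotic): -1.73 to -1.29 and -2.85 to -1.60 for oxLDL in the mutant, -1.53 to -1.11 and -2.39 to -1.59 over both genotypes, 0.21 to 0.74 and 1.18 to 2.43 for treated genotype, 0.50 to 1.05 and 1.84 to 2.34 over both treatments, and -0.80 to -0.24 and -1.14 to 0.17 for the interaction, whose mitotic median turned positive without treated mutant replicate 2. A run without a wild-type library gives the mutant change alone in place of the oxLDL effect over both genotypes. For genotype over both treatments it gives the difference in 1 treatment. The ends -1.53, 0.50 and 1.05 come from such runs.

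Single genes near 0 turned sign. For genotype over both treatments, Pcna was 0.0128 with upper quartile factors, 0.0518 with library totals and 0.0395 or 0.0398 with limma. Leaving out libraries gave -0.76 to 0.85, where both ends come from runs without a wild-type library and so from 1 treatment only. E2f1 was 0.0230 with library totals and -0.18 to 0.0507 leaving out libraries, and Cdt1 -0.13 to 1.01. The ends of these ranges also come from runs without a wild-type library. For E2f1 in untreated genotype the range was -0.0285 to 0.11. For oxLDL over both genotypes, Pcna was 0.0188 with upper quartile factors, 0.00204 with library totals and -0.56 to 0.23 leaving out libraries, and Cdt1 -0.44 to 0.0721. The lower ends come from runs without untreated wild type, which give the mutant change alone.

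Treated and untreated mutant samples share replicate numbers, but nothing in the labels pairs them, and the deviations of same-numbered samples correlated at 0.26 over all genes tested and 0.53 over the 49. With a replicate block 25 replication and 24 mitotic genes were lower with oxLDL in the mutant, where 21.2% of all genes were. Over both genotypes 23 and 24 were lower, where 19.9% were. The interaction called 1 and 0 lower, where 0.922% of all genes were, against 0.299% without the block. The block changed none of these counts of the 49 genes, but the interaction calls over all genes rose. The genotype comparisons could not be fitted with the block, and the interaction could not be fitted without either wild-type library. All 49 genes passed the filter, so counting those that passed gave the same numbers. Depth limits genes near 2 CPM in treated wild type, where 1 count is 0.0639 CPM.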
